A study of Mus musculus with 6 samples.

Results

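The transcripts described here are those of 10 genes that glucocorticoid hormones are known to raise, compared between livers of mice that lack SRC-2 and livers of wild-type mice. They were taken by name, as every probe set whose array annotation gave exactly 1 of the symbols Fkbp5, Tat, Tsc22d3, Sgk1, Mt1, Mt2, Zbtb16, Cebpd, Tdo2 and Sds. This gave 20 probe sets of 45101, for 9 of the 10 genes, among 18194 genes with a named probe set. Sds, which encodes the serine dehydratase of liver, had no probe set under that symbol and was not analysed here. Total RNA of whole liver was measured on short oligonucleotide arrays, 3 for wild-type and 3 for SRC-2 null female mice. All animals were on a C57 background, had been ovariectomized when 6 weeks old, and 2 weeks after surgery they were killed under Avertin anaesthesia, so neither group had intact ovaries. The labels give the null genotype as SRC-2-/- with no account of the allele, and they name no glucocorticoid treatment. Each value is a log2 expression value made by robust multi-array average, so a difference of 1 is a doubling of signal.

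Glucocorticoids, corticosterone in the mouse, act through the glucocorticoid receptor, a nuclear receptor that is held by heat shock proteins in the cytosol until hormone binds. The bound receptor enters the nucleus, attaches to response elements in DNA and recruits coactivators, among them the p160 proteins SRC-1, SRC-2 and SRC-3. SRC-2, also called GRIP1 or TIF2, is encoded by Ncoa2. In liver the hormone raises enzymes of amino acid breakdown and glucose production, and in many tissues it raises a shared set of feedback and anti-inflammatory regulators, which includes Fkbp5 and Tsc22d3.

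Ncoa2 was lower in the null livers. Its brightest probe set read 7.74, 7.92 and 8.53 on the wild-type arrays and 5.60, 5.44 and 5.86 on the null arrays (log2 difference -2.44, SE 0.20, limma adjusted p = 0.000354). Array medians lay between 4.17 and 4.24. Of 6 hepatocyte markers tested, none passed and 0 had an unadjusted limma p under 0.05, with a median difference of -0.0044, and those with the smallest p were Cps1, Fgb, Hnf4a and Alb, at 0.17, -0.12, -0.060 and -0.022. All 12 Kupffer cell and macrophage markers were called lower, beside 3.13% of all genes tested, with a median of -0.99. The mean log2 value over the list was 8.11 to 8.16 on the wild-type and 6.98 to 7.08 on the null arrays. Marco, Cd5l, Timd4 and C1qb had the smallest p in that list, with differences of -2.35, -1.15, -1.40 and -1.15. In RNA from whole tissue, fewer cells of a type and less RNA per cell cannot be told apart. None of 5 neutrophil markers passed, again with 0 at an unadjusted p under 0.05, and Csf3r, Mpo, S100a9 and S100a8 differed by -0.24, 0.12, 0.045 and 0.056. No defining marker of these lists that was measured lay below the filter on dim genes. Replicate 3 of both genotypes deviated from its group in a shared way, so differences are also given within replicates 1 and 2 and within replicate 3 for the genes that the results turn on.

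With the brightest probe set of each gene, 1 of the 9 genes passed the test and was lower, Zbtb16. The background is 4.67% of 11895 genes tested, 3.13% lower and 1.55% higher. The median difference of the 9 genes was -0.17, beside 0.0026 over all genes tested. Of the 9, 8 lay below 0, but Cebpd and Sgk1 only barely, at -0.0080 and -0.020, and their signs turned in some alternatives. The 2 genotypes had separate ranges of values for 4 of the 9, namely Fkbp5, Tsc22d3 and Zbtb16 with null below and Tdo2 with null above, beside 23.4% of all genes tested (12.5% below and 10.8% above). In the test over single probe sets, 3 of the 17 member probe sets above the filter passed, 1 each of Mt1 and Zbtb16 (lower) and 1 of Tdo2 (higher), beside 2.41% of 19634 probe sets, 1.79% lower and 0.616% higher. The count of 0 genes higher in limma stands beside 1 gene, Tdo2, that was higher at an unadjusted p under 0.05, where 3 of the 9 genes in all and 17.2% of all genes tested had such a p. The filter removed 3 member probe sets, 1 each of Fkbp5, Tsc22d3 and Cebpd. With the replicate number as a block 2 genes and 6 probe sets of the members passed, while the share called over all genes tested was 6.99% and 814 of all 19634 probe sets were called, against 473 without the block. These counts rest on few calls: 2 of the 3 probe set calls were lost when single arrays were left out.

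**Figure D1:**
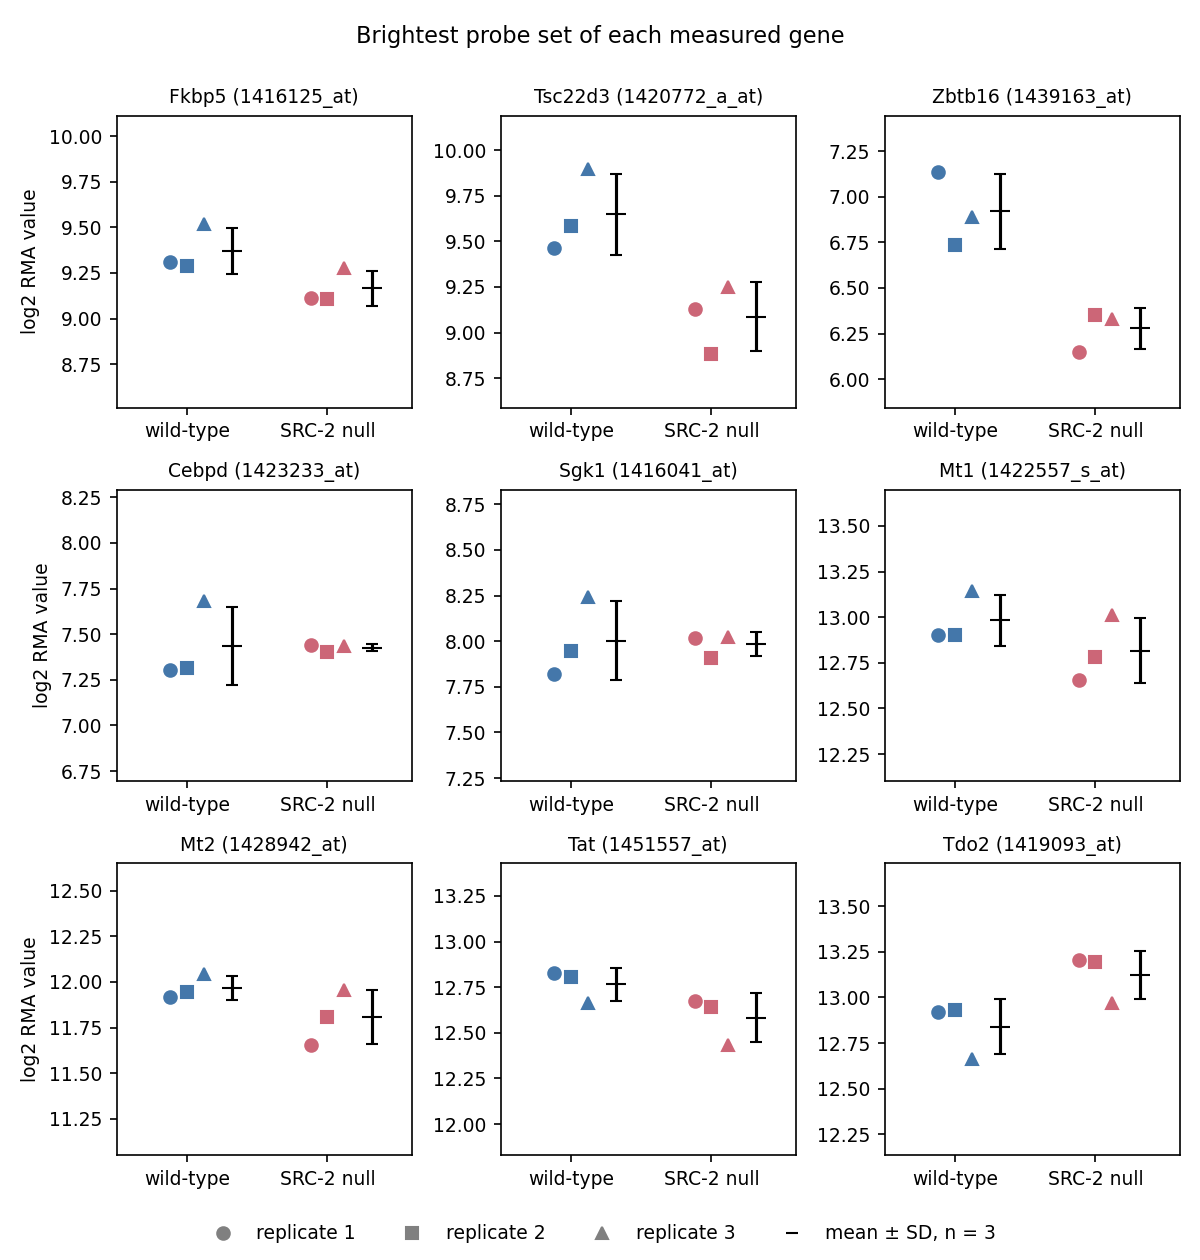
Log2 RMA value (vertical axes, each spanning the same 1.6 units) of the brightest probe set of each measured gene on the 3 wild-type and 3 SRC-2 null arrays, with replicate number as the symbol and mean ± SD (n = 3) beside the points. Zbtb16 and Tsc22d3 lie lower and Tdo2 higher on all null arrays, while the points of Cebpd and Sgk1 overlap.

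Among the feedback regulators, Fkbp5 encodes a co-chaperone that lowers the receptor's affinity for hormone and is itself strongly hormone-induced. Its brightest probe set, 1416125_at, read 9.31, 9.29 and 9.52 in wild-type and 9.11, 9.11 and 9.28 in null liver. The groups did not overlap, but by a gap of only 0.013, and the difference of -0.21 (95% interval -0.43 to 0.016) did not pass (limma adjusted p = 0.332). It was -0.19 within replicates 1 and 2 and -0.24 within replicate 3. A second probe set, 1448231_at, had overlapping groups at 8.35 ± 0.21 and 8.23 ± 0.27 (SD, n = 3).

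Tsc22d3 encodes GILZ, a leucine zipper protein that mediates part of the anti-inflammatory action of glucocorticoids. Probe set 1420772_a_at read 9.47, 9.58 and 9.90 on the wild-type and 9.13, 8.88 and 9.25 on the null arrays. Probe set 1425281_a_at read 9.23, 9.22 and 8.96 on the wild-type and 8.66, 8.66 and 8.37 on the null arrays. In both, every null array lay below every wild-type array, by at least 0.22 and 0.30. The differences were -0.56 (SE 0.14, 1.48-fold) and -0.57 (SE 0.12, 1.49-fold), and neither passed, with limma adjusted p of 0.116 and 0.0637 among probe sets and 0.0640 for the first among genes. With the replicate block both passed, at adjusted p of 0.0375 and 0.0133, and so did the gene, at 0.0237. The gene also passed with a filter at a mean of 6, an intensity trend and replicate 3 as a batch block (0.0450, 0.0247 and 0.0129). Those settings called 7.46%, 6.20% and 8.26% of all genes tested. Probe set 1425281_a_at passed in them too (0.0390, 0.0273 and 0.00446 among probe sets) and with arrays centred on their medians (0.0491). Probe set 1420772_a_at passed with the batch block (0.0194). Of 15 alternatives run for each, 1425281_a_at was called in 5 and 1420772_a_at in 2, and neither in any that left out 1 array. The gene was called in 4 of 16 alternatives, and in none that left out 1 array (adjusted p of 0.0714 to 0.203). With the mean of its 4 probe sets, 1 of them dim, Tsc22d3 differed by -0.29 and did not pass (adjusted p = 0.0753). Within replicates 1 and 2 the differences of the 2 bright probe sets were -0.52 and -0.56, and within replicate 3 they were -0.65 and -0.60. Another probe set, 1425557_x_at, whose suffix marks possible cross-hybridisation, had overlapping groups and a difference of 0.06 (95% interval -0.24 to 0.37). The fourth was dim in every array, at 3.46 to 3.93.

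Zbtb16 encodes PLZF, a zinc finger repressor that is among the genes most responsive to glucocorticoid in several tissues. Probe set 1439163_at read 7.14, 6.73 and 6.89 in wild-type and 6.15, 6.35 and 6.33 in null liver. The highest null array lay 0.38 below the lowest wild-type array. The difference of -0.64 (SE 0.12, 1.56-fold) passed among genes (limma adjusted p = 0.0208) and among probe sets (0.0451). It was -0.68 within replicates 1 and 2 and -0.56 within replicate 3. Probe set 1419874_x_at, whose suffix also marks possible cross-hybridisation, read 6.23, 6.24 and 6.84 in wild-type and 5.83, 5.59 and 6.09 in null liver. Its groups did not overlap either, and its difference of -0.60 (SE 0.20) did not pass (limma adjusted p = 0.223). The third, 1427638_at, had overlapping groups and a difference of -0.26 (95% interval -0.63 to 0.12). Leaving out 1 array ended the gene's call for wild-type 1 (adjusted p = 0.0563), null 1 (0.0887) and null 2 (0.0642), as did taking replicates 1 and 2 alone (0.107), and among probe sets it was lost whichever array was left out, with adjusted p from 0.0685 to 0.171. Probe set 1439163_at also missed the threshold without the filter (adjusted p = 0.0572) and with quantile normalization repeated (0.0583). With the replicate block, it had an adjusted p of 0.0533 and 1419874_x_at one of 0.0275.

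The 2 genes whose values over the 6 arrays lay closest to those of Zbtb16, each centred on its own mean, were Gpd2 and Tm6sf1. Their root mean square distances from the Zbtb16 profile were 0.069 and 0.088 on the log2 scale. Both were picked by these same values, genotype difference included. A fall of similar size was thus built into the choice and is not independent evidence. Gpd2, mitochondrial glycerol-3-phosphate dehydrogenase, differed by -0.74 (SE 0.12, limma adjusted p = 0.0129) and Tm6sf1 by -0.64 (SE 0.11, adjusted p = 0.0139). Gpd2 lost its call without null array 1 (adjusted p = 0.0501) and in replicates 1 and 2 alone (0.0635), and Tm6sf1 without wild-type array 1 (0.0560) or wild-type array 2 (0.0562).

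Cebpd and Sgk1 showed overlapping groups. Cebpd, a transcription factor that responds to glucocorticoids and to inflammation, read 7.31, 7.32 and 7.68 in wild-type and 7.44, 7.40 and 7.44 in null liver. The null arrays lay inside the wild-type range, and the difference was -0.0080 (95% interval -0.27 to 0.25, limma adjusted p = 0.985). Within replicates 1 and 2 it was 0.11 and within replicate 3 it was -0.25, so its sign turns with the arrays taken. Its other probe set lay below the filter, at 3.65 to 3.94. Sgk1, a kinase that regulates ion transport and cell survival downstream of corticosteroids, read 7.82, 7.95 and 8.24 in wild-type and 8.02, 7.91 and 8.02 in null liver. The difference was -0.020 (95% interval -0.29 to 0.25, adjusted p = 0.961), with 0.080 within replicates 1 and 2 and -0.22 within replicate 3.

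Upstream sequence was at hand for 7 of the 10 genes, as 14 RefSeq windows of 250 bases before an annotated transcription start (GRCm38.p6). The palindrome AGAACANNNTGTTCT, the classical glucocorticoid response element, was searched in all 32851 such windows of the genome and stood in 3 of them (0.00913%). One of the 3 lies before 1 of the 6 annotated starts of Sgk1, which is shown because Sgk1 is also the gene with one of the smallest differences here. In the sequence, chr10:21993640-21993889 on the plus strand, the capitals mark the palindrome, which begins 189 bases before the start.
Sgk1: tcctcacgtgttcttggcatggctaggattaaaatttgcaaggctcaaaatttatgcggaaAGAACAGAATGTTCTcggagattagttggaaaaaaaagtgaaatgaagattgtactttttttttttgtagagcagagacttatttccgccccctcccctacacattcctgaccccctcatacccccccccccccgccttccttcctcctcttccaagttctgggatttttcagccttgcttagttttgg
The half-site AGAACA, on either strand as AGAACA or TGTTCT, stood in 16.1% of all windows and, counting those within the palindrome, in 3 of the 6 windows of Sgk1, 1 of the 3 of Tsc22d3 and none of Fkbp5, Tat, Mt1, Mt2 and Tdo2. A match is a string of letters and not a measured binding site, and many response elements lie farther from the start than these windows reach.

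The metallothioneins Mt1 and Mt2 encode small cysteine-rich proteins that bind zinc and copper, and both glucocorticoids and metals raise them. The genes are next to each other in the RefSeq gene table, with 0 genes between them. Metals act on them through the factor MTF-1, which reads metal response elements with the core TGCACNC or TGCGCNC. This core, on either strand, stood in 21.4% of all windows. It stood once in the Mt1 window, chr8:94178839-94179088, and 3 times in the Mt2 window, chr8:94172368-94172617, both on the plus strand. The sequences are shown for the only adjacent pair among the genes, with the core in capitals.
Mt1: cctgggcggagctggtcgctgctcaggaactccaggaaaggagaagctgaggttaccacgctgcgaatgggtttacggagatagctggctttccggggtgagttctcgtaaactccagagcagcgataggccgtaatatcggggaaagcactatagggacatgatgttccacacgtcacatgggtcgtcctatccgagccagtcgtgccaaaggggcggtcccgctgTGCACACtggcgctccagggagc
Mt2: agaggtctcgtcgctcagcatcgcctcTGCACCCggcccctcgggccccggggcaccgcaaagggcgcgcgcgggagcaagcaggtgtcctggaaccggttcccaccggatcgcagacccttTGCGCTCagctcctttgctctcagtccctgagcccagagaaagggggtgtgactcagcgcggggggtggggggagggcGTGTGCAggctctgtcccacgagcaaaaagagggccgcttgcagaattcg
In the Mt1 window the core begins 23 bases before the annotated start, and in the Mt2 window the cores begin 223, 128 and 50 bases before it. Cores outside these windows were not searched, so the counts do not compare the full promoters of the pair. A match is again a string of letters and not a measured binding site.

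The 2 probe sets of Mt1 gave different answers. Probe set 1451612_at read 8.80, 8.81 and 8.72 in wild-type and 7.52, 7.77 and 7.67 in null liver. It fell 2.18-fold (log2 difference -1.12, SE 0.09, limma adjusted p = 0.00117 among probe sets), with a gap of 0.95 between the groups. The difference was -1.16 within replicates 1 and 2 and -1.05 within replicate 3, and the call held under all 15 alternatives tried, with adjusted p up to 0.0155. Probe set 1422557_s_at, the brightest of Mt1, read 12.90, 12.90 and 13.14 in wild-type and 12.66, 12.78 and 13.01 in null liver. Its groups overlapped, and the difference of -0.17 (95% interval -0.43 to 0.10) did not pass (adjusted p = 0.547 among genes). Its suffix marks a set that can detect more than 1 related transcript, and its mean lay at the 99.8th percentile of all probe sets. Taken within each array, 1451612_at minus 1422557_s_at was -4.10, -4.10 and -4.42 in wild-type and -5.14, -5.01 and -5.34 in null liver. The 2 groups of differences did not overlap (exact two-sided permutation p = 0.1, the smallest that 3 against 3 arrays allow, and 0.2 adjusted over the 2 genes so compared, which were chosen after their values were seen).

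Mt2 was read by 1 probe set, 1428942_at, at 11.91, 11.94 and 12.04 in wild-type and 11.66, 11.81 and 11.95 in null liver. The groups overlapped through null replicate 3. The difference of -0.16 (95% interval -0.39 to 0.067, adjusted p = 0.479) was close in size to that of the bright Mt1 probe set. Which Mt1 probe set reads the change in Mt1 RNA was not tested. When the probe sets of a gene were averaged, Mt1 passed with a difference of -0.64 (adjusted p = 0.00331).

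**Figure D2:**
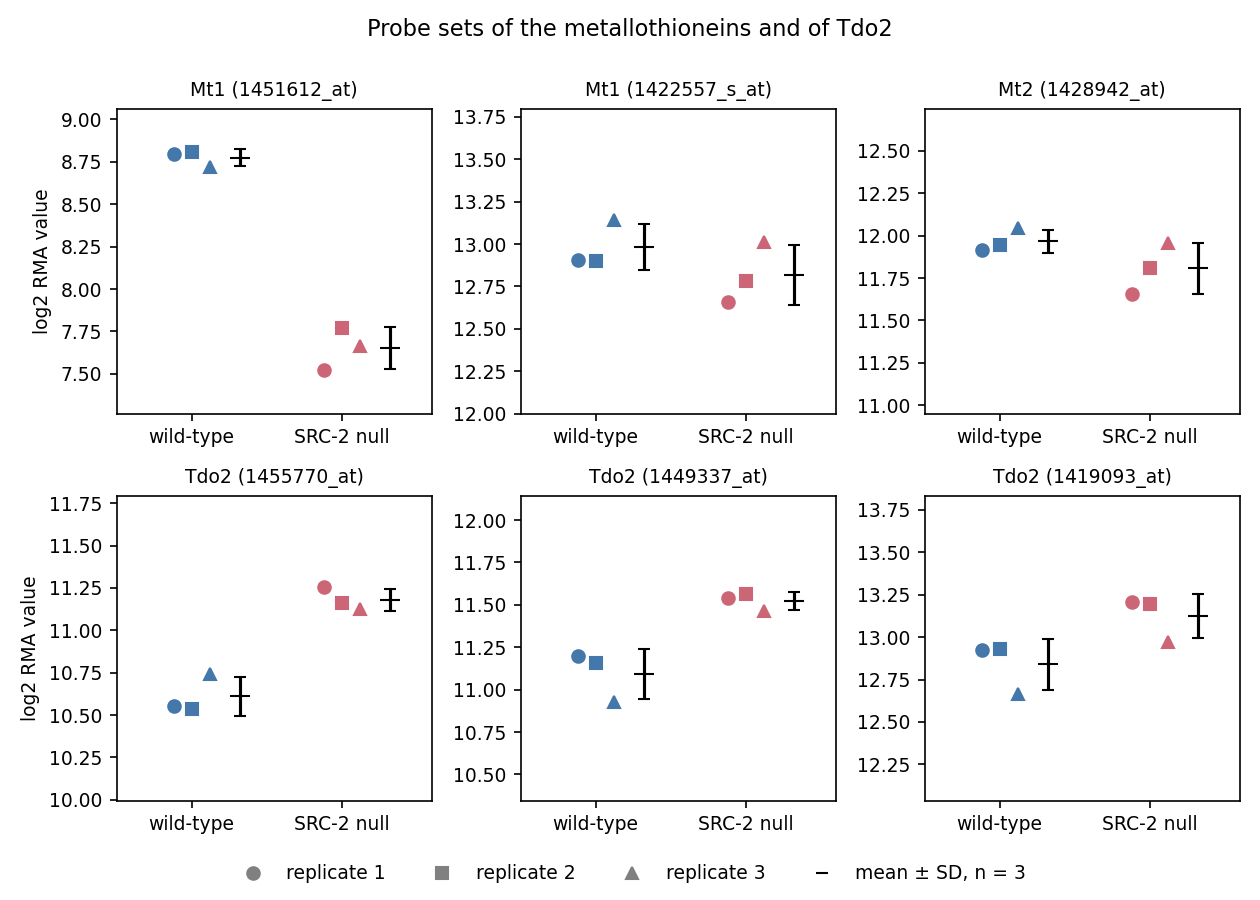
Log2 RMA value (vertical axes, each spanning 1.8 units) of the 2 Mt1 probe sets, the Mt2 probe set and the 3 Tdo2 probe sets on each array, with replicate number as the symbol and mean ± SD (n = 3) beside the points. Mt1 1451612_at lies about 1.12 lower in null liver while the other metallothionein probe sets overlap, and all 3 Tdo2 probe sets lie higher on every null array.

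Among the enzymes of amino acid breakdown neither Tat nor Tdo2 passed among genes. Tat, tyrosine aminotransferase, which starts tyrosine breakdown and is the classical hormone-induced enzyme of liver, read 12.83, 12.81 and 12.66 in wild-type and 12.68, 12.64 and 12.43 in null liver. Null replicate 1 lay just above wild-type replicate 3, so the groups overlapped. The difference was -0.18 (95% interval -0.41 to 0.042, limma adjusted p = 0.403), with -0.16 within replicates 1 and 2 and -0.23 within replicate 3.

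Tdo2, tryptophan 2,3-dioxygenase, starts tryptophan breakdown in hepatocytes and was the single member above 0. Its 3 probe sets, from bright to dim, were 1419093_at, 1449337_at and 1455770_at. The first read 12.92, 12.93 and 12.67 in wild-type and 13.21, 13.19 and 12.97 in null liver. The second read 11.20, 11.16 and 10.93 in wild-type and 11.54, 11.57 and 11.47 in null liver. The third read 10.56, 10.54 and 10.74 in wild-type and 11.25, 11.16 and 11.12 in null liver. All 3 were higher on every null array than on any wild-type array. The differences were 0.28 (SE 0.11), 0.43 (SE 0.10) and 0.57 (SE 0.09), and of these the third passed, a rise of 1.48-fold (limma adjusted p of 0.323, 0.0885 and 0.0255 among probe sets). The third probe set kept its call without wild-type replicate 3 and lost it without any other single array, with adjusted p up to 0.136. With the replicate block the second passed too (adjusted p = 0.0458). With replicate 3 set against replicates 1 and 2 as a batch block, the gene, read by the first probe set, passed among genes (adjusted p = 0.0365), where 8.26% of all genes tested were called. The difference between the third and the first within an array was -2.37, -2.39 and -1.92 in wild-type and -1.95, -2.03 and -1.85 in null liver, which overlapped (exact two-sided permutation p = 0.3). The mean of the 3 probe sets differed by 0.43 and passed (adjusted p = 0.0148).

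**Figure D3:**
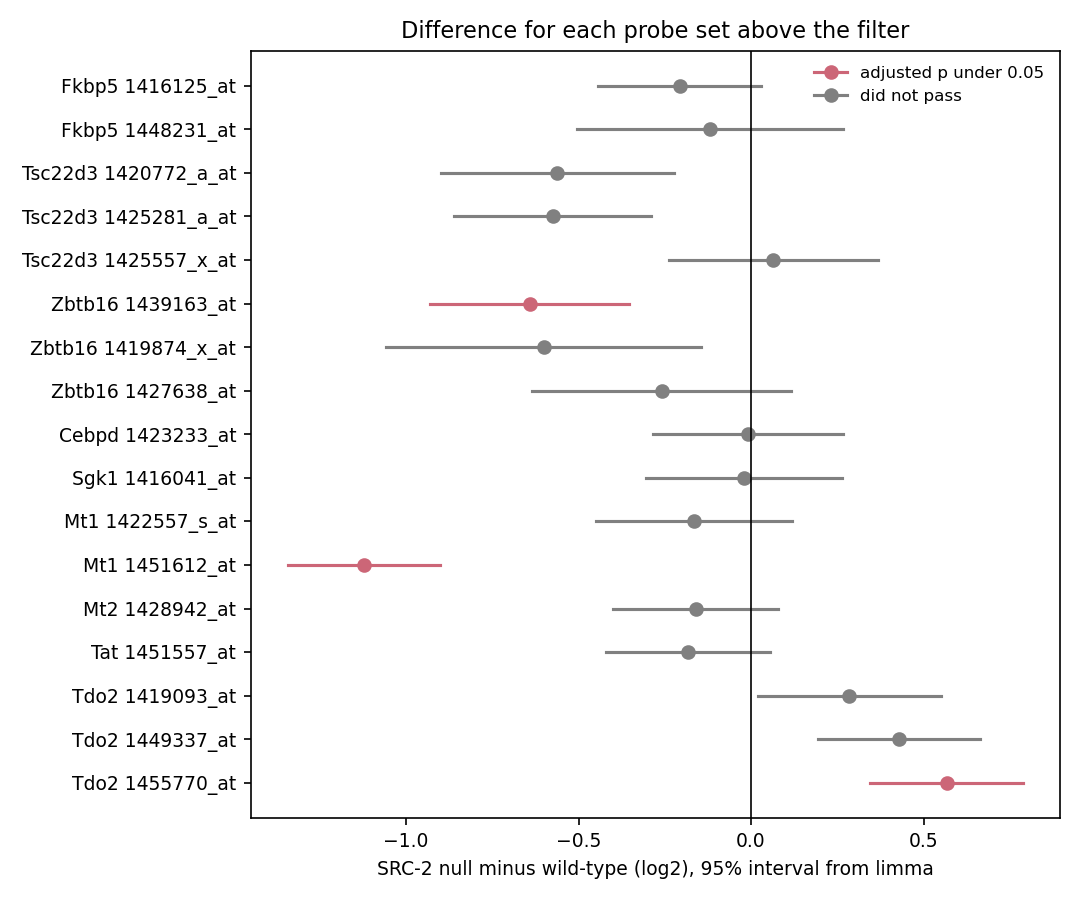
SRC-2 null minus wild-type on the log2 scale (horizontal axis) for the 17 member probe sets above the filter, with 95% intervals from limma; red marks an adjusted p under 0.05. Red sets are Zbtb16 1439163_at, Mt1 1451612_at and Tdo2 1455770_at, and the intervals of 2 Tsc22d3 sets, another Zbtb16 set and the other Tdo2 sets also lie off 0 without passing.

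Upstream of these genes, the receptor gene itself, Nr3c1, averaged 8.29 ± 0.11 in wild-type and 8.11 ± 0.10 in null liver (SD, n = 3), with overlapping groups (difference -0.18, limma adjusted p = 0.393). Hsd11b1, the enzyme that regenerates active corticosterone in liver, differed by -0.19 and did not pass (adjusted p = 0.358); both were named after their values were seen. Of 11 genes tested for the receptor, its chaperones and the supply of steroid, 1 passed (9.09%, beside 4.67% of all genes tested). This was Serpina6, which encodes corticosteroid-binding globulin, the plasma carrier of corticosterone that the liver secretes. It read 11.16, 11.19 and 11.05 in wild-type and 10.45, 10.41 and 10.20 in null liver, a 1.71-fold fall (log2 difference -0.78, SE 0.10, adjusted p = 0.00286) that was called under all 16 alternatives. The chaperone genes Stip1, Hsp90aa1 and Hspa8, next by p, differed by 0.28, 0.24 and 0.23 and did not pass. Of 12 coregulators of the receptor, Ncoa2, the gene of SRC-2 itself, alone passed (8.33%, beside the same 4.67%). Nrip1, Crebbp and Smarca4, a corepressor, an acetyltransferase and a chromatin remodeller, differed by -0.35, -0.28 and 0.21 and did not pass; with replicate 3 as a batch block Nrip1 (adjusted p = 0.0276) and Crebbp (0.0486) did.

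A further list held 22 genes that glucocorticoids are known to raise in liver, several of which also answer to fasting, insulin or stress. Of these 9 fell, none rose and 13 did not pass, a share of 40.9% beside 3.13% of all genes called lower, with a median of -0.38. At an unadjusted limma p under 0.05, 15 were lower and 0 higher, beside 17.2% of all genes in either direction. The list was made with falls of some of its members already known, so the share is not independent evidence. Dusp1, a phosphatase of MAP kinases, fell 2.45-fold, from 10.65, 10.68 and 10.81 to 9.35, 9.46 and 9.46. Lpin1, a phosphatidate phosphatase, fell 2.18-fold, Ddit4, an inhibitor of mTORC1, 2.16-fold, and G6pc, the last enzyme of glucose release, 1.64-fold (adjusted p of 9.78e-05, 0.000121, 0.000407 and 0.00154). The other 5 were Txnip, Pdk4, Gadd45b, Angptl4 and Cdkn1a, at -0.81, -0.96, -0.60, -0.39 and -0.59, named because they complete the count. Angptl4 kept its call without 1 of the 6 arrays and so did Cdkn1a. Without single arrays the count was 7 to 10, and in replicates 1 and 2 alone it was 7. Per1, Klf9 and Klf15, direct targets of the receptor in many tissues, differed by -0.33, -0.13 and -0.32 and did not pass (adjusted p of 0.340, 0.509 and 0.0568). Klf9 and Klf15 had every null array below every wild-type array, by 0.0025 and 0.24, as did 12.5% of all genes tested. Per1 overlapped between groups. All were named after their values were seen.

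Of 12 immediate early genes tested, 7 fell and none rose, with 0 higher at an unadjusted limma p under 0.05 (median -0.68). The share lower was 58.3%, beside 3.13% of all genes called lower. This list too was chosen with earlier results of these data known, so the share is not independent evidence. Fos, Jun, Dusp1 and Egr1 had the smallest p and fell 7.14-fold, 3.99-fold, 2.45-fold and 3.77-fold. The mean log2 value over the 12 genes was 8.09 to 8.41 on the wild-type and 7.10 to 7.35 on the null arrays. Dusp1 stands in both lists. The part of these changes, and of the lower macrophage markers, in the values of Zbtb16, Tsc22d3, Mt1 and the further list was not tested.

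Other enzymes of amino acid breakdown, listed beside Tat, Tdo2 and Sds, included some that were higher in null liver. Of 17 tested for tryptophan, tyrosine, serine, glycine and alanine breakdown, 3 rose and 14 did not pass. None fell, and at an unadjusted limma p under 0.05 there were 1 lower and 8 higher, beside 17.2% of all genes in either direction. None of the listed tryptophan or tyrosine enzymes passed. Of them, Afmid, Qprt and Hpd were higher at such an unadjusted p, by 0.31, 0.28 and 0.22, and were picked out after their values were seen. The share called higher was 17.6%, beside 1.55% of all genes, and the median was 0.15. The list was made with earlier results of these data known, so the share is not independent evidence. Agxt, alanine-glyoxylate aminotransferase, rose 1.77-fold from 10.60, 10.56 and 10.62 to 11.32, 11.47 and 11.46 (adjusted p = 0.000919). Gpt, alanine aminotransferase, rose 1.38-fold and Gldc, glycine decarboxylase, 1.33-fold, with adjusted p of 0.0121 and 0.0388. Leaving out wild-type array 1 or 2, or null array 2, ended the call of Gpt (adjusted p up to 0.0584). Gldc kept its call in 1 of the 6 such fits, the one that left out wild-type array 3 (adjusted p up to 0.135). Gpt2, the mitochondrial form, differed by 0.33 and did not pass (adjusted p = 0.0825, or 0.0367 with replicate 3 as a batch block).

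None of 14 genes of zinc and metal handling passed in limma, where 2 were lower and 0 higher at an unadjusted p under 0.05, with a median of -0.13. The smallest p values belonged to Slc30a10, Cp, Atp7b and Slc39a4, at -0.38, -0.26, 0.33 and -0.21. Mtf1, the gene of the metal-sensing factor, differed by -0.082 (adjusted p = 0.714) and was named after its value was seen. None of 15 relatives of the members passed either, with 1 lower and 1 higher at an unadjusted p under 0.05 and a median of -0.023. Cebpb, Sgk3, Tsc22d4 and Zbtb7b had the smallest p, with differences of -0.54, 0.26, 0.25 and 0.23. Cebpb, whose product pairs with that of Cebpd, did not overlap between groups and had an adjusted p of 0.153, or 0.0198 with the replicate block. The block also brought Slc30a10 (0.0418) and the coregulator gene Nrip1 (0.0457) past the threshold.

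**Figure D4:**
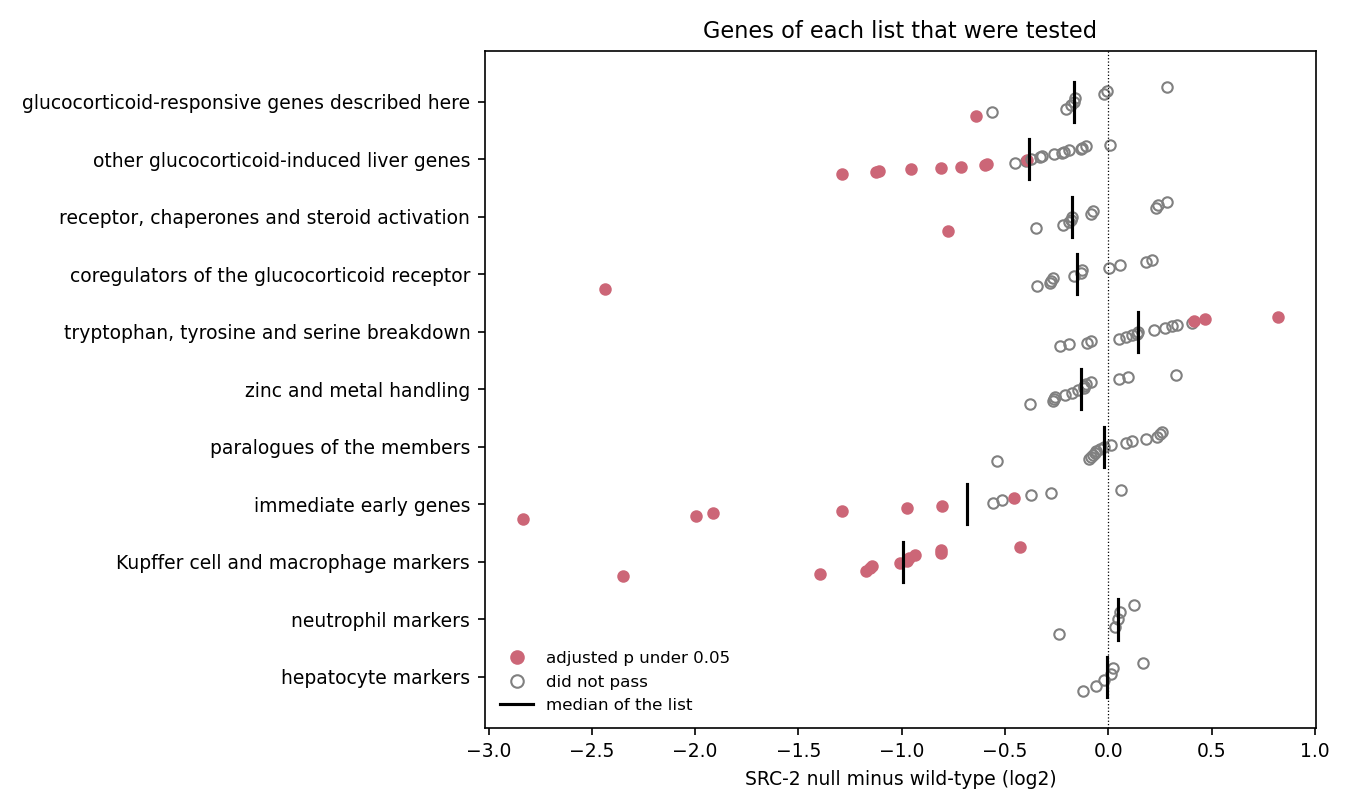
SRC-2 null minus wild-type on the log2 scale (horizontal axis) for every tested gene of each list, filled where the limma adjusted p was under 0.05, with the list's median as a bar. The members centre on -0.17, the further glucocorticoid-induced genes on -0.38 and the macrophage markers on -0.99, while amino acid breakdown centres on 0.15.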

How the data were processed

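Total RNA of 6 livers was labelled with biotin for Affymetrix arrays, per the labels' protocols. The authors deposited 1 column of log2 values per array, made with RMA per the submitters' processing notes. The RMA version, chip description file and build were not given in the sources used here. RMA compresses differences near background. Symbols came from the platform annotation: 34958 probe sets had exactly 1, 932 had several, and 34754 matched the GRCm38.p6 gene table by gene number.

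Each gene was represented by its brightest probe set (mean of the 6 arrays). Genes whose mean reached 4.21, the median over probe sets, were tested, 11895 in all, with limma 3.58.1 in R 4.3.3 (lmFit, eBayes, two-sided, genotype as the only term) and called where the Benjamini-Hochberg adjusted p lay under 0.05. All 19634 single-symbol probe sets above that value were tested likewise. The procedure was tested on simulated data. Members and lists were chosen with earlier results of these data known.

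Genes named were the members, up to 4 of each list with the smallest p, the 2 profiles closest to each called member, and Ncoa2; exceptions are marked as chosen after their values were seen. No pair of arrays was identical. Nothing states that replicates are separate animals, so the p-values reflect the spread among these 6 samples, possibly technical in part. Deviations from group means of same-numbered arrays correlated across 11895 genes (which are not independent) at 0.18, 0.20 and 0.52. Wild-type 1 with null 2 and wild-type 2 with null 1 reached 0.21 and 0.17, so only replicate 3 stood apart. Pairing within replicates 1 and 2 was not shown. The numbers served as a block in alternatives only, a choice from the data and not the labels. Figures used matplotlib 3.10.9. Alternatives covered the filter, probe set summary, normalization, variance model, replicate and batch blocks, and leaving out each array.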

Additional observations from a re-analysis of the deposited data

How the results depend on the processing

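Member counts of 2 changed and 2 lower (1 and 1 as reported) came with a filter at a mean of 6, with an intensity trend and with the replicate block, where 7.46%, 6.20% and 6.99% of all genes tested were called, against 4.67%; the mean of all probe sets gave 3, with 2 lower and 1 higher, as did replicate 3 as a batch block (5.34% and 8.26% of all genes), and replicates 1 and 2 alone gave 0 and 0. Member probe sets numbered 3, and 5, 5, 6 and 7 with the filter at 6, the trend, the replicate block and the batch block, but 2 without the filter, with repeated quantile normalization and in replicates 1 and 2. Over all genes, 184 were higher, and 307 with the replicate block, where 814 probe sets changed (473 as reported); the batch block gave 983 genes, 607 lower and 376 higher, and 1131 probe sets, and replicates 1 and 2 gave 329, 234 and 95 genes. Without single arrays there were 275 to 438 genes (210 to 315 lower, 65 to 174 higher), 225 to 353 probe sets, 0 to 1 members, 0 to 1 lower, and 1 to 2 member probe sets. Directions turned for values near 0: Cebpd reached 0.048 with the mean of probe sets, 0.018 with repeated quantile normalization and 0.11 in replicates 1 and 2, where Sgk1 reached 0.080, S100a8 -0.043 and S100a9 -0.046, and Hnf4a reached 0.047 with the mean of probe sets. Without single arrays Cebpd ranged from -0.072 to 0.12, Sgk1 from -0.11 to 0.0995, Alb from -0.040 to 0.0048, Mpo from -0.041 to 0.33, S100a8 from -0.064 to 0.20, S100a9 from -0.0082 to 0.12, Fkbp5 1448231_at from -0.24 to 0.035 and Tsc22d3 1425557_x_at from -0.016 to 0.20. The cause was not tested. With the replicate block no member call changed other than those given for Tsc22d3, Zbtb16 and Tdo2. Of the 33 other called genes of the lists and nearest profiles, not all of them named, 25 kept their calls under all alternatives run for them and 0 turned direction. The counts over further lists and probe sets across alternatives were added after seeing the data. The number of arrays, 3 a group, limits the precision.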
